A study of Xenopus laevis with 6 samples.

Results

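The transcriptome of whole Xenopus laevis embryos at stage 35 was described from 3 of the 6 libraries of the series, each made from 10 pooled wild-type, untreated, intact embryos kept for 7 days at 14 °C in 0.1X MMR, a dilute Ringer's solution. These embryos were the age-matched group for Xenobots, motile constructs grown from explanted ectoderm, and no comparison with the Xenobots was made. Each pool mixes all tissues of 10 animals, so a level is an average over the body, and fewer cells of a type and less RNA per cell cannot be told apart. From 42638 genes in the count table, 11 neighbouring loci, 10 of them annotated as ribosomal RNA (rRNA), were removed. Counts of the remaining 42627 genes were scaled to CPM (counts per 1000000 counts of the pool), and the 500 genes with the highest mean CPM over the 3 pools were taken. No part of this choice rested on a difference between groups.

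By stage 35 the tailbud embryo has a beating heart, contractile trunk muscle, a notochord, a brain and eyes with a forming lens, pronephric kidneys, a liver rudiment and a ciliated epidermis with mucus-secreting cells. Xenopus laevis is an allotetraploid: its genome holds long (L) and short (S) sets of chromosomes inherited from different ancestral species. Many genes are therefore present as a pair of related copies, called homeologs, whose symbols end in .L or .S. Homeologs share much of their sequence, so some reads fit both copies, and the estimated counts divide such reads between them.

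The 3 pools held 17533207, 18850128 and 22225123 counts. The removed loci took 27.0, 40.5 and 39.0% of them, which left 12803783, 11221646 and 13555125 counts in pools 1, 2 and 3. In total, 28890 genes (67.8%) had more than 3 counts in every pool, and their median was 11.2 CPM. The gene at rank 500, jarid2.L, had 254, 242 and 230 CPM, and its neighbours sptbn1.L just inside the boundary and tuba1a.L and rpl11.S just outside it all had means of 242 CPM, so membership near the boundary is arbitrary. No member had fewer than 2115 counts in a pool, at which the counting error alone is 2.17%. CPM is not a level per transcript length, so long transcripts rank higher than short ones made in equal number.

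The top 500 genes, 1.17% of all genes ranked, held 32.8% ± 1.75 (SD, n = 3 pools) of the counts. The share was 31.3, 32.3 and 34.7% in pools 1, 2 and 3. The first 10 genes alone held 6.94% ± 1.06 and the first 100 held 17.8% ± 1.66. Between 1448 and 1730 genes were needed to reach 50% of the counts of a pool. The ranking was much alike in the 3 pools: 435 of the 500 genes were in the top 500 of each pool, and the lowest place of any member in a pool was 750 (tnnt3.L in pool 2). The median coefficient of variation (CV, the SD as a percentage of the mean) over the pools was 8.31%, and 32 genes exceeded 25%. Protein-coding genes numbered 486, beside 8 long noncoding RNAs, 2 further rRNA genes, 1 small nuclear RNA, 1 small nucleolar RNA, 1 transcribed pseudogene and 1 gene model with no entry in the reference annotation.

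The gene model with the most counts was nemf.L, named for a component of the quality control of stalled ribosomes, on chromosome 8L from base 84000154 to 84033526. It had 16329, 20826 and 23821 CPM in pools 1, 2 and 3 and so took 2.03% of all counts. The gene model named ccdc50.L_1, at rank 4, had 5883, 7222 and 8123 CPM, whereas the models ccdc50.L and ccdc50.S, looked up after these values were seen, had 72 to 77 and 110 to 160 counts per pool. Both were lowest in pool 1 and highest in pool 3. Gene counts do not show which transcripts the reads of these 2 models came from, so their places in the ranking are those of the gene models and not known levels of the nemf and ccdc50 messenger RNAs. The small nuclear RNA rn7sk, which restrains transcription elongation, had 4910, 3496 and 3587 CPM and was highest in pool 1.

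Members with a locus number or placeholder as their symbol made up 94 of the 500, or 18.8%, against 29.6% of all genes with more than 3 counts in every pool. They held 7.78% ± 0.755 of the counts, more than any named class. LOC108701391 on chromosome 9_10L (79425239 to 79660129) had 10030, 13368 and 14723 CPM. LOC108702272 on chromosome 9_10S (69713937 to 69911667) had 5605, 8751 and 9952 CPM. Both are annotated as protein-coding and both were lowest in pool 1 and highest in pool 3. The long noncoding RNA LOC121402969 on chromosome 4L (25000028 to 25013550) had 3911, 4141 and 4591 CPM, with pool 3 again the highest. LOC108698887 and LOC108696889, both protein-coding, followed with means of 3916 ± 743 and 2519 ± 304 CPM (SD, n = 3).

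**Figure D1:**
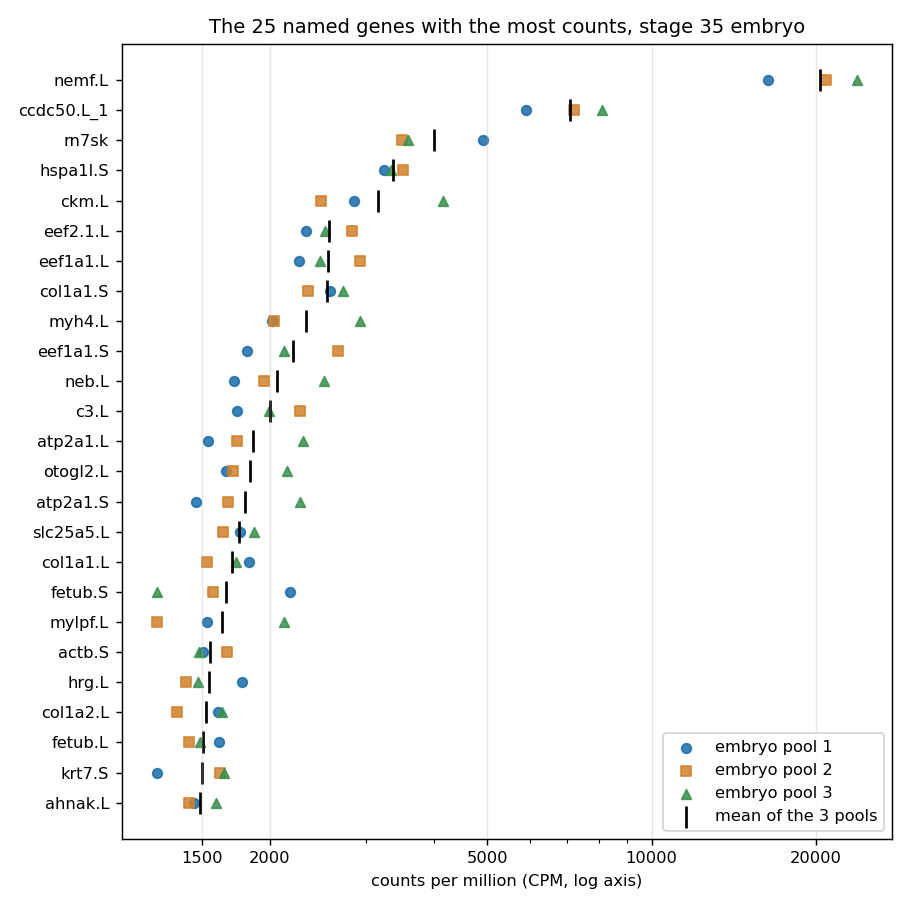
The 25 genes of known name with the most counts, in CPM on a log axis, with 1 point per embryo pool and a bar at the mean of the 3 pools. nemf.L (mean 20325 CPM) stands far to the right, and the muscle genes ckm.L, myh4.L, neb.L, atp2a1.L, atp2a1.S and mylpf.L are highest in pool 3.

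Of the classes with a shared function, muscle contraction, cytosolic ribosomal proteins and the extracellular matrix had the largest shares of the counts. Genes of the sarcomere and of muscle contraction, among which oncomodulin genes were counted, numbered 38 and held 3.05% ± 0.660 of the counts. ckm.L, the muscle creatine kinase that buffers ATP, had 2853, 2477 and 4144 CPM. The fast skeletal myosin heavy chain gene myh4.L had 2021, 2033 and 2921 CPM. neb.L, which encodes nebulin, the giant protein lying along the thin filament, had 1716, 1950 and 2509 CPM. The calcium pump of the sarcoplasmic reticulum was abundant from both copies, with means of 1862 ± 395 CPM for atp2a1.L and 1804 ± 417 CPM for atp2a1.S. Pool 3 was the highest for each of these genes, as it was for 37 of the 38 members, whereas 167 of all 500 members were highest there. As drawn by symbol, the class was ahead of the ribosomal proteins only through pool 3. Its share was 2.74, 2.61 and 3.81% in pools 1, 2 and 3. Without pool 3 it held 2.67% of the counts and the ribosomal proteins 2.93%. The class leaves out unnamed genes, among them abundant ones beside myh4.L and myh8.L described below. This order of the classes therefore holds only for the class as drawn. The number of genes depended on the table: ranked by the deposited log2 values after the authors' surrogate-variable adjustment, 12 genes of the class were in the top 500. Leaving out 1 pool gave between 34 and 40.

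Some abundant genes lay next to each other. A group of 5 members within chromosome 8L from 95324856 to 95477496, picked out after their positions were seen, are myh4.L, myh8.L and the unnamed LOC108698887, LOC108698976 and LOC108698977, and together they had 9314, 9707 and 13645 CPM. The unnamed genes were not counted in the muscle class, since the annotation used here gives them no function. The oncomodulin 4 genes, which belong to the parvalbumin family of calcium-binding proteins, supplied 9 of the 500, with 5 on chromosome 9_10L and 4 on chromosome 9_10S. Oncomodulin genes were counted in the muscle class, so their order of the pools is part of that pattern and not a separate observation. The summed level peaked in pool 3 in both clusters. The L cluster had 1946, 1718 and 2327 CPM and the S cluster 1777, 1485 and 2224 CPM. All 20 oncomodulin genes of the table together held 0.492% ± 0.0833 of the counts.

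Extracellular matrix genes numbered 39 and held 2.44% ± 0.149 of the counts. The class is not a measure of connective tissue, as it also holds the skin gene col17a1, the basement membrane collagen gene col4a5 and the integrin gene itgb4. Type I collagen, the main fibrillar collagen of dermis and bone, led the class: col1a1.S had 2578, 2352 and 2718 CPM, col1a1.L had 1835, 1537 and 1733 CPM and col1a2.L had 1606, 1349 and 1633 CPM. All of them were lowest in pool 2. The proteoglycan gene vcan.L (versican) had a mean of 1186 CPM. Collagen genes of all types held 1.84% ± 0.131 of the counts, and 21 of the 58 collagen genes in the table were in the top 500. The sheath of the notochord and young cartilage contain type II and type XI collagen, and both copies of their chains were members: col2a1.L had a mean of 1088 ± 38.7 CPM, col2a1.S had 841 ± 83.6 and col11a1.L had 783 ± 83.5.

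Plasma proteins, most of them made by the liver, numbered 23 and held 1.85% ± 0.0801 of the counts. c3.L, the central component of complement, had 1739, 2272 and 1993 CPM. fetub.S, which encodes the plasma protein fetuin B, had 2176, 1574 and 1241 CPM, and it was the only member of the class among the 15 most variable genes of the 500 (CV 28.5%). Its homeolog fetub.L varied less, with 1616, 1424 and 1487 CPM. hrg.L, which encodes histidine-rich glycoprotein, had 1774, 1402 and 1474 CPM. Of the 23 genes, 15 were highest in pool 1 and 3 in pool 3, whereas 163 of all 500 members were highest in pool 1 and 167 in pool 3. The summed share differed little between pools (1.94, 1.81 and 1.79%).

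Skin genes appeared as keratins, secreted mucus proteins and junction proteins. The 7 keratins held 0.509% ± 0.0523 of the counts. krt7.S had 1243, 1619 and 1646 CPM, krt7.L had 1199, 1211 and 1472 CPM and krt12.4.S had 717, 969 and 1048 CPM, each lowest in pool 1 and highest in pool 3. Most keratin genes were scarce: the median rank of the 71 keratin genes in the table was 29196. Of the mucus and secretory class only 3 genes were members, but all were abundant. otogl2.L, an otogelin-like gene related to gel-forming mucins, had 1662, 1712 and 2146 CPM. itln1.L, the intelectin lectin secreted by goblet cells of the embryonic skin, had 1005, 1148 and 1568 CPM, and muc2l.L had a mean of 1184 CPM. The desmosomal linker dsp.L had 463, 464 and 581 CPM and led the 6 genes of cell adhesion and junctions, which include both copies of ctnnb1 (beta-catenin).

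Genes for making protein were the most numerous. The class of cytosolic ribosomal proteins, in which both copies of rack1 were counted, had 73 genes. It held 2.92% ± 0.0994 of the counts (3.03, 2.83 and 2.89% in pools 1, 2 and 3), a narrow spread beside that of the muscle class. rpl3.L led with a mean of 1148 CPM, followed by rpsa.S (852 CPM), rps12.L (763 CPM) and rplp0.L (736 CPM). A further 24 translation factors held 1.92% ± 0.140. The elongation factors were far ahead: eef2.1.L had 2333, 2832 and 2519 CPM, eef1a1.L had 2261, 2929 and 2467 CPM and eef1a1.S had 1818, 2664 and 2119 CPM. All peaked in pool 2, as did 17 of the 24 factors, whereas 170 of all 500 members were highest there. The poly(A)-binding protein gene pabpc1.S followed with a mean of 1247 CPM.

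The remaining classes serve functions common to most cells. The actin cytoskeleton gave 24 genes with 1.52% ± 0.0274 of the counts, the smallest relative spread of any class with more than 10 genes, led by actb.S (1506, 1666 and 1483 CPM), ahnak.L (1454, 1419 and 1595 CPM) and actb.L (mean 1440 CPM). RNA-binding and splicing proteins numbered 34 (1.47% ± 0.0660), led by both copies of the cold-inducible cirbp (1374 CPM for L and 1195 CPM for S). Chromatin proteins numbered 29 (1.17% ± 0.0343), among them ncl.L (nucleolin, 975 CPM) and hmgn1.L (810 CPM). The 16 chaperones held 1.16% ± 0.0469, of which hspa1l.S, a member of the HSP70 family, had 3234, 3502 and 3334 CPM and hsp90ab1.S had a mean of 1342 CPM.

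Nuclear genes of energy metabolism were less prominent among the leading genes. Oxidative phosphorylation supplied 9 genes (0.479% ± 0.0213), led by slc25a5.L, the mitochondrial exchanger of ADP and ATP, with 1766, 1638 and 1873 CPM. The citric acid cycle and other mitochondrial functions supplied 7 (0.271% ± 0.0175). They were led by idh2.L (495 CPM), mgarp.L, nnt.L (444 CPM) and cs.S (413 CPM). A class of glycolysis and related enzymes supplied 5, of which gapdh.S (568 CPM), ldhb.S (372 CPM) and aldoa.L (352 CPM) act in glycolysis or on its product, while ckb.L (853 CPM) and ckb.S (248 CPM) encode the brain-type creatine kinase, which buffers ATP. The 13 genes of the mitochondrial genome in the annotation were not in the count table and so could not rank. Polyamine synthesis, which supplies small cations needed for growth, had 5 members, amd1.L, odc1.L, amd1.S and both copies of its inhibitor oaz1, with 0.172% ± 0.00863 of the counts. This class was formed only from members of the top 500 after their names were seen, so its size is not a result. The copy odc1.S, at 68.8 CPM, was outside it. The ferritin genes ftmt.S and fth1.1.S, which store iron, had 598 and 352 CPM.

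**Figure D2:**
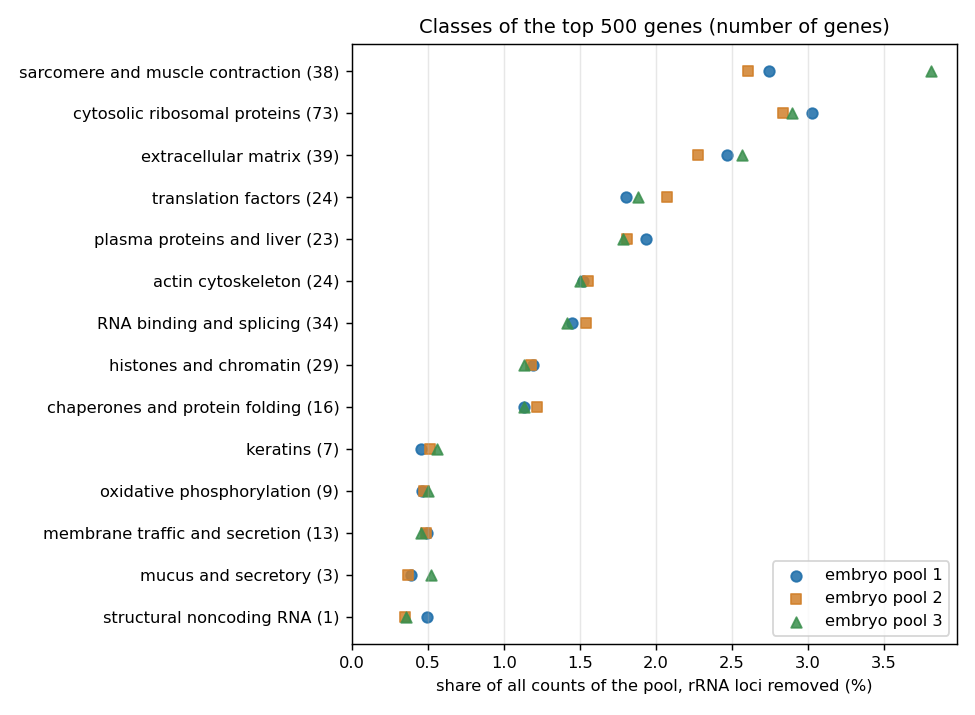
Share of all counts of each pool (rRNA loci removed, in percent) held by the members of each of 14 classes, with the number of genes in brackets and 1 point per embryo pool. Muscle contraction (2.74, 2.61 and 3.81%) is the class whose points lie farthest apart, and those of the actin cytoskeleton nearly coincide.

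Lists of organ and cell type markers were used to check that the libraries held the tissues of a whole embryo. Skeletal and cardiac muscle (22 of 61 gene copies) and liver and plasma (20 of 47) filled most listed places in the top 500. Epidermis (10 of 72) and notochord and cartilage (5 of 39) followed. Blood had 2 members, and gut and pancreas, neural, eye and lens, multiciliated cells, goblet and small secretory cells and the cell cycle had 1 each. Heart, endothelium, kidney, ionocyte, cement gland and hatching gland, pigment cell, leukocyte, germline and endocrine markers had none. The medians over all listed copies ran from 155 CPM for liver and plasma and 99.97 CPM for muscle to 0.888 CPM for endocrine and 0.608 CPM for germline markers.

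Each list had copies with more than 3 counts in every pool, as did 67.8% of all genes ranked. Neural markers had 64 of 65 such copies, but gut and pancreas had 28 of 38, endocrine 20 of 33 and germline 9 of 16. On the neural list, tubb2b.S, a neuronal tubulin, was the only member of the top 500 (398, 338 and 240 CPM). The splicing regulator nova1.L (208, 187 and 118 CPM) and the adhesion molecule ncam1.L (176, 179 and 134 CPM) came next on that list. In the eye, the genes with the most counts encoded rhodopsin, the rod opsin: rho.2.L had 326, 218 and 205 CPM, rho.L had a mean of 182 ± 51.3 CPM and rho.S 120 ± 31.4 CPM. None of the 91 crystallin genes, which encode structural proteins of the lens, was in the top 500, but all of them together held 0.124% ± 0.0107 of the counts, against 0.0552% ± 0.0149 for the 3 rho genes. The globin genes that led the blood list were hba3.L (404 ± 91.0 CPM), hba4.S (226, 304 and 198 CPM) and hbd.S (198, 243 and 147 CPM), all highest in pool 2 and lowest in pool 3.

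The heart list was led by mybpc3.L, which encodes cardiac myosin-binding protein C, with 170, 195 and 284 CPM, and by myh6.S, the cardiac alpha myosin heavy chain, with 248, 192 and 170 CPM. These 2 genes thus ordered the pools oppositely, mybpc3.L with the skeletal genes and myh6.S against them. Most of the heart list was far lower, with a median of 6.55 CPM. Its defining markers myl7.S, tnni3.S and nppa.L had 16.1 ± 3.82, 6.43 ± 2.17 and 1.90 ± 0.305 CPM. Kidney was led by the transporters slc4a4.L (71.4 ± 4.75 CPM) and slc12a1.L (56.5 ± 2.07 CPM). The endothelial markers vwf.L and cdh5.L had 42.2 ± 2.99 and 38.1 ± 1.48 CPM. The pigment cell list was led by pmel.L (120 ± 25.5 CPM) and tyrp1.L (109 ± 14.0 CPM), which act in melanosomes. The leukocyte list was led by mpo.L, a myeloperoxidase, at 166 ± 6.28 CPM. These leading genes stood above their lists: the medians of the kidney, endothelium, pigment cell and leukocyte lists were 7.46, 8.59, 13.5 and 11.7 CPM.

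Among cell types of the epidermis, tubb4b.L (270 ± 16.5 CPM), a tubulin used in cilia, led the multiciliated cell list. The axonemal dynein gene dnah9.S had 71.5 ± 8.25 CPM. Most of the multiciliated cell list was far lower, with a median of 6.54 CPM. The ionocyte list was led by atp6v0d1.L, ca2.L and atp6v1a.L, but most of the list was far lower, with a median rank of 9310. The proton pump subunit genes atp6v0d1.L and atp6v1a.L had 141 ± 18.2 and 110 ± 12.7 CPM. Pools of whole embryos do not show which cells these counts came from, so they are not a measure of ionocytes. The cement gland gene agr2.S had 51.2 ± 7.64 CPM. In the gut list only darmin.L, an endodermal marker in Xenopus, was a member (231, 351 and 296 CPM), and the intestinal fatty acid carrier fabp2.L had 55.7 ± 12.7 CPM. darmin.L was lowest in pool 1, whereas 24 of the 28 gut and pancreas copies above 3 counts were highest there. Of all genes above 3 counts in every pool, 42.7% were highest in pool 1. Of the cell cycle genes, top2a.L had 376 ± 19.8 CPM and mki67.L, a marker of cycling cells, had 205, 233 and 203 CPM.

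Several defining markers were at or near the floor of 3 counts. hba1.L had at most 3 counts in each pool, cryaa.S had 2 to 12, nppa.S had 4 to 6 and hbg1.L had 1 to 4. Symbols for krt5, noto, tyr, astl2c and he1 were not matched and were not analysed here. acta1.S, a skeletal muscle actin in mammals, had 4.97 CPM, while actc1.L had 1478 CPM.

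**Figure D3:**
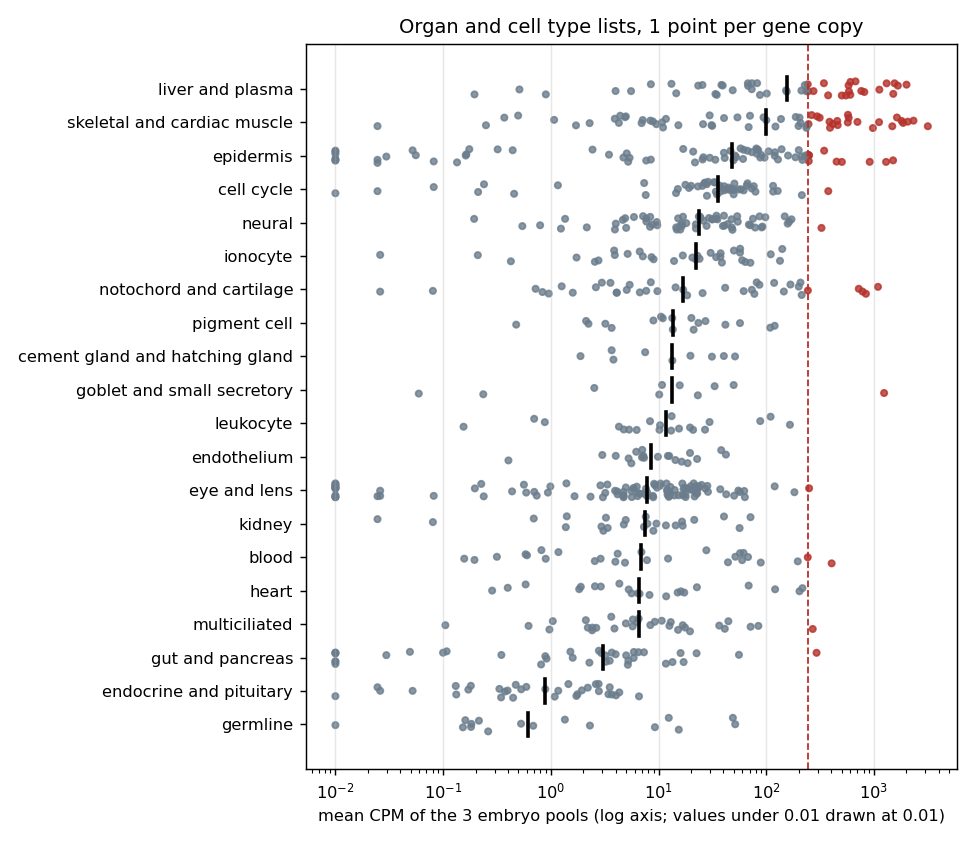
Mean CPM over the 3 embryo pools (log axis) of every matched gene copy in 20 organ and cell type lists, ordered by the median (black bar), with members of the top 500 in red and their lowest level, 242 CPM, as a dashed line. Liver and muscle reach farthest to the right, and the endocrine and germline medians lie below 1 CPM.

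Marker levels of several tissues differed between the pools. On the muscle list, 40 of the 57 copies above 3 counts were highest in pool 3, where 23.3% of all 28890 such genes were. On the neural list, 57 of 64 copies were lowest in pool 3, and on the eye and lens list 69 of 83, where 45.6% of all such genes were. The summed neural level was 3097, 2865 and 2080 CPM, and that of the eye and lens was 2067, 1779 and 1341 CPM, with pool 3 the lowest in both. The muscle sum was 21598, 20736 and 30429 CPM. Epidermis genes were highest in pool 3 in 29 of 54 copies. Cell cycle genes were highest in pool 2 in 36 of 45 copies, as were 9835 of all 28890 such genes, and notochord and cartilage genes highest in pool 1 in 27 of 36, where 42.7% were. The labels give no extraction or sequencing date that separates the pools. Pool 1 also had the lowest share in the removed rRNA loci and pool 3 the most counts, and their part in these differences was not tested.

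Among single genes of the 500, the largest CVs belonged to noncoding or unnamed loci. The small nucleolar RNA LOC121401750 had 312, 981 and 525 CPM (CV 56.4%). LOC121401724, an rRNA gene outside the removed range, had 805, 1985 and 1435 CPM (CV 41.9%). Pool 2 was the highest and pool 1 the lowest for both, which is the order of the pools in their share of counts at the removed rRNA loci. MGC80947 had 271, 255 and 490 CPM (CV 38.7%), the long noncoding RNA LOC121397596 had 1243, 607 and 837 CPM (CV 35.9%) and ocm4.2.S had 270, 220 and 426 CPM (CV 35.3%). Of the 32 genes with a CV above 25%, 21 were highest in pool 3, 8 in pool 1 and 3 in pool 2.

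**Figure D4:**
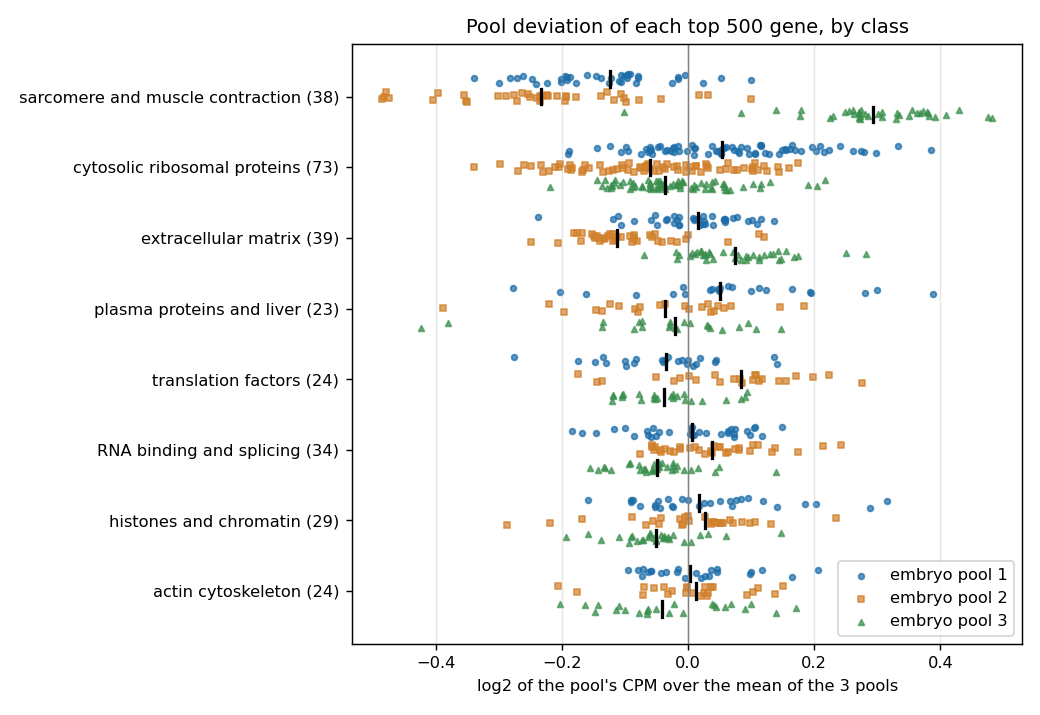
Deviation of each member from its own mean, as the log2 of the CPM in a pool over the mean CPM of the 3 pools, for 8 classes, with 1 point per gene and pool and a black bar at the median of each pool. Muscle genes lie to the right in pool 3 (37 of 38 are highest there). The other classes shown deviate less, but some also lean to a pool. Of the translation factors, 17 of 24 are highest in pool 2, as are 170 of all 500 members. Of the extracellular matrix genes, 25 of 39 are highest in pool 3, as are 167 of all 500.

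By the ending of their symbols, 234 members were L copies, 173 were S copies and 93 had neither ending. L copies were thus 57.5% of the members with an ending, close to the 57.1% among all genes with one. Measured in counts, L copies held 64.1% ± 1.09 of the counts of members with an ending, with 63.2, 63.7 and 65.3% in pools 1, 2 and 3. Over all genes the L share of counts was 60.6% ± 0.536, and among the 500 genes ranked next below the members it was 58.9% ± 0.288. In the top 100 it was 70.8% ± 1.63. These shares rest in part on nemf.L and ccdc50.L_1: without them, an alternative added after the values were seen, L copies held 59.7% ± 0.729 of the counts in the top 500, 62.7% ± 1.33 in the top 100 and 59.2% ± 0.306 over all genes, so the gap between the top 500 and all genes was then within the SD of the pools. Assigned by chromosome, which also places the locus-number genes, 279 members were on L and 220 on S chromosomes, and 61.3% ± 1.06 of their counts were from L. Ending and chromosome can differ, as for mylpf.L, a fast skeletal myosin light chain gene that the annotation places on chromosome 9_10S.

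Members with an ending came from 305 symbols. Both copies were members for 102 symbols. For 74 only the L copy was, with the S copy lower in the ranking at a median rank of 1212, and for 47 only the S copy was, with the L copy at a median rank of 966. A further 58 symbols had an L copy and no S symbol in the table, and 24 an S copy and no L symbol. A named partner was found for 73.1% of the 305 symbols, against 53.9% of all symbols with an ending. A symbol with both copies can enter through either of them, so part of this gap is set by the choice. By class, muscle contraction had 21 L and 17 S members, ribosomal proteins 42 and 30, extracellular matrix 24 and 15, translation factors 12 and 12, plasma proteins 12 and 11 and keratins 3 and 4.

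To ask which copy of a pair was read more, the counts of the L and S copies were compared within the same pools by limma-voom for 7267 pairs, with the pool as a block. Ratios are of counts and are not corrected for the length of the copies, and the 3 pools may share a source, so the test measures only the spread between them. Of all pairs, 2088 (28.7%) had a higher L copy and 876 (12.1%) a higher S copy (limma, Benjamini-Hochberg adjustment, adjusted p below 0.05 with a log2 ratio beyond 1 or -1). The median log2 ratio of L over S was 0.34. Among the 222 tested pairs with a copy in the top 500, 56 (25.2%) had a higher L copy and 32 (14.4%) a higher S copy, and their median log2 ratio was 0.27. These shares were close to those over all pairs. They were above the 18.4% and 10.4% of the 250 pairs with the highest summed CPM, which were not chosen on 1 copy. Where both copies were members, 10 of 102 pairs had a higher L copy and 4 a higher S copy. Both copies must then rank high, which limits their ratio, so this low share is set in part by the choice. Where 1 copy was a member the counts were 46 and 28 of 120, but such pairs are chosen on their more abundant copy, so their imbalance is set in part by the choice. The share of pairs called fell as the level rose, from 57.0% in the lowest of 10 groups of equal size by summed CPM to 28.9% in the highest.

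Among the 222 tested pairs with a copy in the top 500, those most tilted to L were led by the muscle and skin genes ckm and col17a1. As these pairs were chosen on an abundant copy and then on their ratio, the values are a description. ckm.L had 2853, 2477 and 4144 CPM where ckm.S had 4.84, 4.19 and 5.61, a log2 ratio of 9.33 ± 0.13 (SE). col17a1, a collagen of the anchoring of epidermis to its basement membrane, had 356, 335 and 389 CPM from L and 0.626, 0.268 and 0.812 CPM from S (log2 ratio 9.21 ± 0.33). Each L value lay far above every S value. thdl20 (log2 ratio 5.41), the basement membrane collagen gene col4a5 (5.21) and the cytoskeletal septin gene septin7 (4.54) completed the 5 of these 222 pairs with the largest ratio to L.

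Those of the 222 pairs most tilted to S held genes of several functions. tpr, a component of the nuclear pore basket, had 2.89, 4.64 and 3.10 CPM from L and 252, 285 and 270 CPM from S (log2 ratio -6.25 ± 0.15). ldhb, a lactate dehydrogenase gene, had 5.39, 5.35 and 4.13 CPM from L and 301, 423 and 393 CPM from S (log2 ratio -6.22 ± 0.15). col6a5 (log2 ratio -5.88), the fibrinogen chain gene fga (-5.47) and the ribosomal protein gene rps19 (-5.07) followed. In each of these pairs the L copy had under 4% of the counts of the pair in every pool.

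The 3 most even of the 222 pairs were ctnnb1, hmgn2 and rps13. ctnnb1 had 333, 389 and 335 CPM from L and 326, 385 and 349 CPM from S, so that L held 49.9% ± 0.798 of the counts of the pair. On the mean, hmgn2 (50.1% ± 1.88 from L) and rps13 (49.97% ± 3.32 from L) were as even. Their log2 ratios were 0.01 ± 0.05 and -0.01 ± 0.06 (SE). Over the pools rps13 varied more than ctnnb1, with 46.3, 52.8 and 50.8% from L in pools 1, 2 and 3. The 38 ribosomal protein pairs with a member had 5 called to L and 3 to S. The 17 muscle pairs, oncomodulin pairs among them, had 4 called to each side. Of the 10 plasma protein pairs 4 were called, each to S, and of the 11 actin cytoskeleton pairs 5 were called, each to L. Chaperone pairs had 3 of 8 called, each to L, and keratin pairs 2 of 5, each to S. Matrix pairs had 8 of 22 called to L and 3 to S. Over all 7267 pairs, 40.8% were called. These class counts are small and are given as a description.

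**Figure D5:**
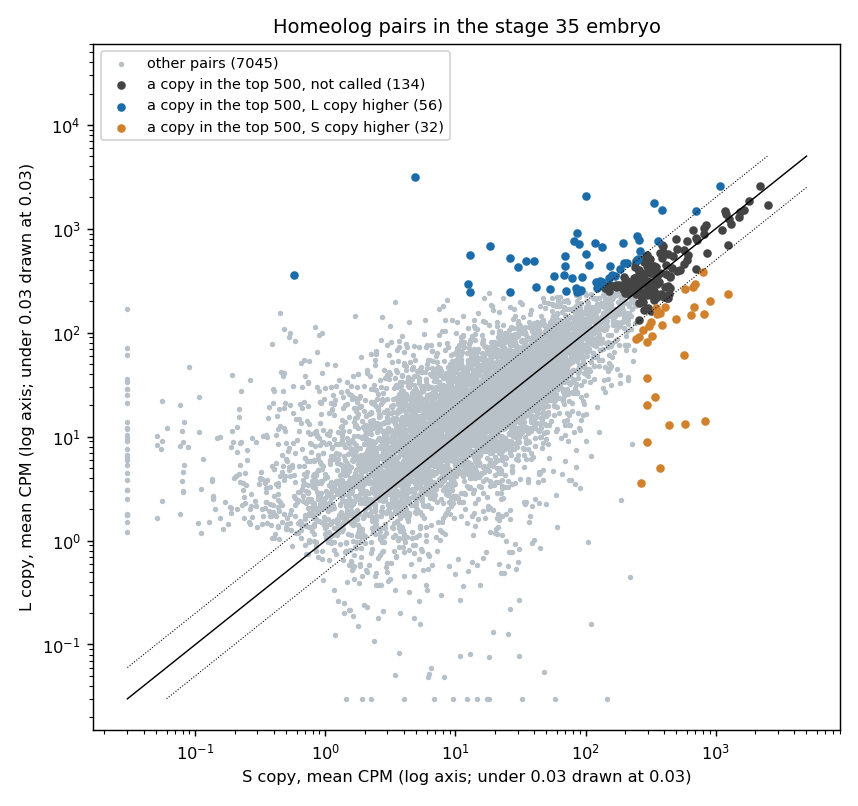
Mean CPM of the L copy against the S copy of 7267 homeolog pairs, both on log axes, with pairs that have a copy in the top 500 coloured by the call. The solid line marks equal counts and the dotted lines a log2 ratio of 1 or -1; ckm and col17a1 are the blue points farthest above the line, and tpr, ldhb and col6a5 are among the orange points farthest below it.

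Unnamed members also lay in groups along the chromosomes. A group of 7 short protein-coding genes on chromosome 3S between 120419256 and 120676391, with spans of 413 to 797 bases, together had 4886, 3452 and 4124 CPM, and the most abundant of them was LOC121402225 (1342 ± 215 CPM). LOC121402233 and LOC121402244 of this group had identical counts in every pool and cannot be told apart by them. A group of 6 genes on chromosome 5L between 108485175 and 109044598 had 3464, 2531 and 3580 CPM. Both groups, picked out after their positions were seen, were lowest in pool 2. Chromosomes 8L and 9_10L held the most members, 42 and 41, and the share of a chromosome's genes in the top 500 ran from 0.881% on 1S to 1.72% on 8S.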

How the data were processed

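The authors removed rRNA from the total RNA of 3 embryo pools and made stranded libraries. Reads were trimmed by the authors (fastp), aligned to the Xenopus laevis genome of NCBI with STAR in its 2-pass mode and turned into counts per gene by RSEM; versions are not given in the sources used here. The deposited table used holds RSEM estimated counts (expected counts), some of them fractional, that the authors made for 42638 genes. The authors also deposited log2 CPM values with surrogate-variable effects removed, used only as an alternative ranking. Groups and replicate numbers came from the sample titles. The table also held the columns of the Xenobot libraries, which were not used, and 0 columns of samples outside the series.

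Counts without the 11 loci LOC121401713 to LOC121401723 were scaled to CPM and ranked by the mean of the 3 pools, with no test. The NCBI gene table of that assembly gave positions and biotypes for 40077 genes. No exon lengths or sequences were used here, so neither counts per kilobase nor the planned length correction of the L over S ratios was computed. Classes were assigned by symbol patterns for 341 members and for 47 after their names were seen. The members and lists were chosen with earlier results of these data known.

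Pairs of L and S copies with a summed CPM above 1.2 in all 3 pools were tested with voom and limma 3.58.1 in R 4.3.3, with the pool as a block because both copies are read from the same library. edgeR 4.0.16 and DESeq2 1.42.0, on rounded counts, were alternatives. Tested on simulated data of 7267 pairs with 200 changed, the test recovered 200 with 1 false call. The changed pairs were set well beyond the ratio threshold and all others were set equal. Every pair had the same spread, and no reads were shared between copies. The simulation therefore cannot tell how the test performs for ratios near the threshold or with shared reads. Library totals were 17533207 to 22225123 counts, and counting errors and the floor of 3 counts cover counting error only.

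The text names the 25 named and 5 locus-number genes with the most counts, up to 4 leading genes per class and 3 per list, the 5 most tilted pairs each way and the 3 most even, the 5 largest CVs and the members and non-members nearest the boundary. Any other gene was named after its values were seen.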

Additional observations from a re-analysis of the deposited data

How the results depend on the processing

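Of the 500 genes, 432 were kept when ranked by the deposited adjusted log2 values, 483 by the lowest pool, 492 with the rRNA loci kept, all but 2 with every annotated rRNA gene removed and 500 with TMM scaling; leaving out a pool kept 487 to 491. With the rRNA loci kept, the top 500 held 56.4% of the counts, since those loci then belong to it. The L share of counts was 55.6% over symbols with both copies in the table, lower than over all symbols, and 59.2% without nemf.L and ccdc50.L_1, an alternative added after seeing the data. Leaving out a pool gave top 500 shares of 31.8 to 33.5%, 235 to 236 L and 170 to 174 S copies, and L shares of 60.3 to 60.8%. The deposited adjusted values gave 245 L and 163 S copies and moved the muscle class from 38 to 12 genes, for which the cause was not tested. Of 224 class counts under the alternatives, 11 moved by over 1.5 times, most of them in classes of 1 or 2 genes. Without the replicate block (the pool left out of the model), 2100 pairs had a higher L and 877 a higher S copy. edgeR gave 2097 and 879, DESeq2 2080 and 874, limma's test against the fold threshold 1549 and 625, a summed CPM above 5 1808 and 755, and no filter 2214 and 931, and leaving out a pool 2080 to 2128 and 886 to 891. Ranking per kilobase and the length correction were not run, as no exon lengths were used here. With 3 pools, the SDs rest on few values.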
